A study of Rattus norvegicus with 12 samples.

Results

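The sarcomeric myosin heavy chains Myh1, Myh2, Myh3, Myh4, Myh6, Myh7 and Myh8 were followed in denervated rat gastrocnemius, a calf muscle. A member is every probe set of the array whose annotation names one of these 7 genes and no other, which gave 13 of 31042 probe sets (7 of 14217 genes with a probe set of their own), and 11 of the 13 were bright enough to be tested among 18626. The 2 that were not tested are both probe sets of Myh6. A further 3 heavy chain probe sets are annotated to several genes and were left out.

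Male Wistar-Hannover rats had the left sciatic nerve cut, which removes the motor supply of the muscle, and all 4 groups carry this lesion. Dosing lasted 7 days in every group, with either vehicle or nandrolone, which is an anabolic androgen. In the groups called vehicle day 7 and nandrolone day 7 dosing began at surgery and muscle was taken at day 7, and in vehicle day 35 and nandrolone day 35 dosing began 29 days after surgery and muscle was taken at day 35. Each group held 3 rats with 1 one-colour Affymetrix array each, 12 arrays in all, no innervated muscle is among them, and the age of the rats is not given in the sources used here. The contrast of day 35 with day 7 compares different rats, and time since nerve section, age and the start of dosing cannot be told apart in it.

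Myosin heavy chains form the motor heads and the rod of the thick filament, and the isoform that a muscle fibre makes sets its contraction speed. In adult rat limb muscle Myh4 (type 2B), Myh1 (type 2X) and Myh2 (type 2A) are the fast isoforms and Myh7 (type 1, beta) is the slow isoform, while Myh6 (alpha) is chiefly a heart isoform. Myh3 (embryonic) and Myh8 (neonatal, also called perinatal) are used during development and by regenerating fibres, and denervation is known to bring them back in adult fibres.

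RefSeq promoter windows of 300 bases (250 before the annotated start and 50 after it, build GRCr8) were found for all 7 genes. By rising coordinate the gene order on chromosome 10 is Myh3, Myh2, Myh1, Myh4, Myh8. On chromosome 15 Myh6 precedes Myh7 by coordinate, and both lie on the minus strand. The windows of the 3 fast genes are printed because only Myh1 among them was called in the data below. This does not show that Myh1 changed otherwise than its neighbours Myh4 and Myh2, which lie at the top of the measured scale. The window of Myh3 is printed because it is the developmental isoform with the brighter signal. The printed windows lie at chr10:52421898-52422197 (Myh4), chr10:52384662-52384961 (Myh1), chr10:52355489-52355788 (Myh2) and chr10:52268935-52269234 (Myh3), all on the plus strand. Capitals mark TATAAA on either strand, the MEF2 site, and the longest run of bases that the 3 fast windows share.
Myh4: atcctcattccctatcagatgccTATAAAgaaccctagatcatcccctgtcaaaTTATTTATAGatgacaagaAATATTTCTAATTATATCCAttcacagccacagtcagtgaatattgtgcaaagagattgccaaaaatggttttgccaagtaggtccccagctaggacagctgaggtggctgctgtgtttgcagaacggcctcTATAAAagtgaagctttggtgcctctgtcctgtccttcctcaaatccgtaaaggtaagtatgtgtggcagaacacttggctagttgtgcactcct
Myh1: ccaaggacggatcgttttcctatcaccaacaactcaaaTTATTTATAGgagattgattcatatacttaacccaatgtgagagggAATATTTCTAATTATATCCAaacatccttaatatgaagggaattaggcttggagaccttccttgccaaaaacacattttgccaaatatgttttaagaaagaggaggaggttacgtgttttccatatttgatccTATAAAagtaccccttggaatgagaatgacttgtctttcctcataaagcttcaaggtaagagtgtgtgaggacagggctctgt
Myh2: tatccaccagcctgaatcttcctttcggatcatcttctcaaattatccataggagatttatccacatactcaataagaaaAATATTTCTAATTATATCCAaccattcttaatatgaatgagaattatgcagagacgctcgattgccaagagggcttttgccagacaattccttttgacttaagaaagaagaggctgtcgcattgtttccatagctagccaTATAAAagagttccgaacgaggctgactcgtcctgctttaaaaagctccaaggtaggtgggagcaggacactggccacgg
Myh3: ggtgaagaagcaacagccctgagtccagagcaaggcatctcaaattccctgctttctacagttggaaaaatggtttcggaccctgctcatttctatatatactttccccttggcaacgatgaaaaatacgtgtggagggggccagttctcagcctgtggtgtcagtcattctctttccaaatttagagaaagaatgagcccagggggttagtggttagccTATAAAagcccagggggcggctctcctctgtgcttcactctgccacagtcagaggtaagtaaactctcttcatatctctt

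The run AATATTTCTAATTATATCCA, of 20 bases, is in all 3 fast windows. Counting these, it is in 5 of 33469 windows of the same length on either strand (0.0149%), the rest being windows of LOC102555216. It begins at position -177 in Myh4, -166 in Myh1 and -170 in Myh2, counting the annotated start as 0. The letters TATAAA, the common form of the TATA box, were found in 4 of the 7 windows against 14.2% of all windows. On the sense strand they were at -227 and -45 in Myh4, -33 in Myh1, -30 in Myh2 and -30 in Myh3. The site of MEF2, a family of muscle transcription factors, was found in 2 of 7 windows against 3.29% of all, at -196 in Myh4 and at -212 in Myh1, and it overlaps a TATAAA on the opposite strand in both. The E-box CANNTG, read by the myogenic factors, was found in 4 of 7 windows against 72.1% of all. GGAAA, the core of NFAT sites, was found in 6 of 7 windows against 62.7%. AGAACA, a core of androgen receptor elements, was found in 1 of 7 windows, that of Myh4, against 20.7%, and the CArG box in the same window alone against 1.64%. All motifs were searched on both strands, and a match is a description of letters, not of a site in use.

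The arrays carried skeletal muscle RNA throughout: the creatine kinase gene Ckm read between 14910.7 and 17062.2 on every array. The 4 cardiac markers Nppa, Tnni3, Myl7 and Ryr2 had signals of at most 54 and none was bright enough to test. The array nandrolone day 35 replicate 3 stood apart, with a median signal of 111.05 against 44.8 to 63.5 on the other 11 arrays and the lowest summed skeletal muscle markers. On that array the summed normalised signal of 5 smooth muscle markers was 10800 against 1138 to 1877 elsewhere, that of 5 adipocyte markers (of 6 listed) 13090 against 1266 to 2781, and that of 4 Schwann cell markers (of 6 listed) 14690 against 1659 to 4792. None of these markers was read at 0. Where leaving out that array ends a call or moves a difference by much, the value without it is given, and the part of these other cells was not tested. The numbers below are signals as deposited, in linear intensity units, or differences in quantile-normalised log2(signal + 16). A probe set was called where limma's moderated test gave a Benjamini-Hochberg adjusted p under 0.05 over all 18626 tested probe sets.

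Among the fast isoforms, Myh1 fell between day 7 and day 35 and the other 2 genes did not pass the test. The Myh1 probe set 1377720_x_at, the brightest of its 5, read 6703, 6066.1 and 7643.1 in vehicle day 7 and 4557, 8008.6 and 5328.9 in nandrolone day 7. It read 3104.6, 2294.3 and 3513.6 in vehicle day 35 and 3348.6, 4875.3 and 4438.2 in nandrolone day 35. After normalisation every day 35 array lay below every day 7 array for this probe set, and the vehicle day 7 rats were close together. Group means were 12.73 ± 0.09 (SD, n = 3) in vehicle day 7, 12.46 ± 0.35 in nandrolone day 7, 11.62 ± 0.19 in vehicle day 35 and 11.96 ± 0.14 in nandrolone day 35. The 2 day 7 groups overlapped each other, and so did the 2 day 35 groups. The day 35 arrays also lay below all day 7 arrays for the Myh1 probe set 1377719_a_at. For the Myh1 probe sets 1377114_at, 1383161_a_at and 1383162_at the arrays of the 2 days overlapped.

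Under vehicle the change of Myh1 1377720_x_at was -1.11 ± 0.17 (log2, SE), a 2.16-fold fall, with a limma adjusted p of 0.00517. Of 11 tested probe sets 4 were called, all lower and all of Myh1, against 5.61% of all tested probe sets called in either direction and 2.17% called lower. The other 3 fell by 1.05 ± 0.20 (1377719_a_at, adjusted p 0.0125), 0.90 ± 0.17 (1383161_a_at, adjusted p 0.0145) and 0.85 ± 0.20 (1383162_at, adjusted p 0.0288). The dimmest Myh1 probe set, 1377114_at, read 418.1 to 626.9 in vehicle day 7 and 249.1 to 429.2 in vehicle day 35. Its difference of -0.73 ± 0.27 was not called (limma adjusted p 0.128), although the normalised values did not overlap. The 5 probe sets read RNA of the same gene and are not independent of one another: the 4 called ones correlated with each other at Pearson r from 0.885 to 0.99 over the 12 arrays, while 1377114_at correlated with them at 0.428 to 0.724. The heavy chain genes are paralogs, and the likeness of their sequences was not computed here. The suffix _x_at marks probe sets with probes that may also read transcripts of other genes. The share of signal from other isoforms is uncertain for all 5 probe sets. The 1377720_x_at call was kept in 22 of 22 alternative analyses, and that of 1383162_at in 15 of 22, being lost without any 1 of the 6 vehicle arrays and on the deposited scale (-0.93, limma adjusted p 0.094). Leaving out vehicle day 7 replicate 3 left 1 of the 4 calls, that of 1377720_x_at, and leaving out vehicle day 35 replicate 3 left 2. The actin 3' to 5' ratio, a sign of RNA quality, was 2.81, 2.11 and 2.25 in vehicle day 7. In vehicle day 35 it was 3.13, 2.68 and 3.71, and its part in the fall of Myh1 was not tested.

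Under nandrolone the same contrast gave -0.50 ± 0.17 for Myh1 1377720_x_at (limma adjusted p 0.199), and its day 35 arrays again lay below all 3 day 7 arrays. None of the 11 heavy chain probe sets was called there by limma, against 0.676% of all tested probe sets, and 2 had an unadjusted p under 0.05, against 2706 of all tested ones. All 11 differences were below 0, with a median of -0.50 against -0.01 over all tested probe sets. Without nandrolone day 35 replicate 3 this no longer held, since the Myh2 difference was then 0.01. Those of Myh7 1367928_at and 1386993_at shrank to -0.11 and -0.19, that of Myh3 to -0.46 and that of Myh1 1377720_x_at to -0.43. The median without that array is not given. In the mean of both treatments 6 of 11 were called, all lower, against 12.6% of all tested probe sets in either direction and 6.07% lower. These shares of all probe sets rest on few rats too: leaving out 1 array gave 178 to 2034 calls under vehicle (1045 with all arrays), 0 to 263 under nandrolone (126) and 1359 to 2676 in the mean of both (2338). Among them were the same 4 Myh1 probe sets, with 1377720_x_at at -0.80 ± 0.12 (limma adjusted p 0.00176). The difference between the 2 time contrasts, the interaction, was 0.62 ± 0.24 for that probe set, with a 95% interval from 0.11 to 1.13, an unadjusted p of 0.0217 and a limma adjusted p of 0.929. The fall of Myh1 was therefore not shown to differ between the treatments.

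Myh4, the fastest isoform, read 11241.1, 11548.2 and 12905.2 in vehicle day 7 and 9923.7, 14635.8 and 15165.2 in nandrolone day 7. It read 9493, 10081.1 and 14968.7 in vehicle day 35 and 10296.8, 9520.2 and 14501.1 in nandrolone day 35. All 4 groups overlapped. The day 35 minus day 7 difference of Myh4 under vehicle was 0.05 ± 0.15, with a 95% interval from -0.28 to 0.38 (limma adjusted p 0.88), and its sign turned on the deposited scale and with median centring. Myh2 read 14775.9, 13292.9 and 14194.6 in vehicle day 7 and 12393.1, 14125.9 and 14681.1 in nandrolone day 7. It read 10465.6, 10273.6 and 13679.8 in vehicle day 35 and 11716.7, 14989.4 and 11750.3 in nandrolone day 35. The normalised Myh2 values of vehicle day 35 lay below those of vehicle day 7, by -0.20 ± 0.11, which was not called (limma adjusted p 0.303). The Myh4 and Myh2 probe sets ranked above at least 99.63% and 99.77% of the probe sets on every array and so lie at the top of the measured scale. In bulk muscle, fewer fibres of a type and less of its RNA per fibre cannot be told apart.

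**Figure D1:**
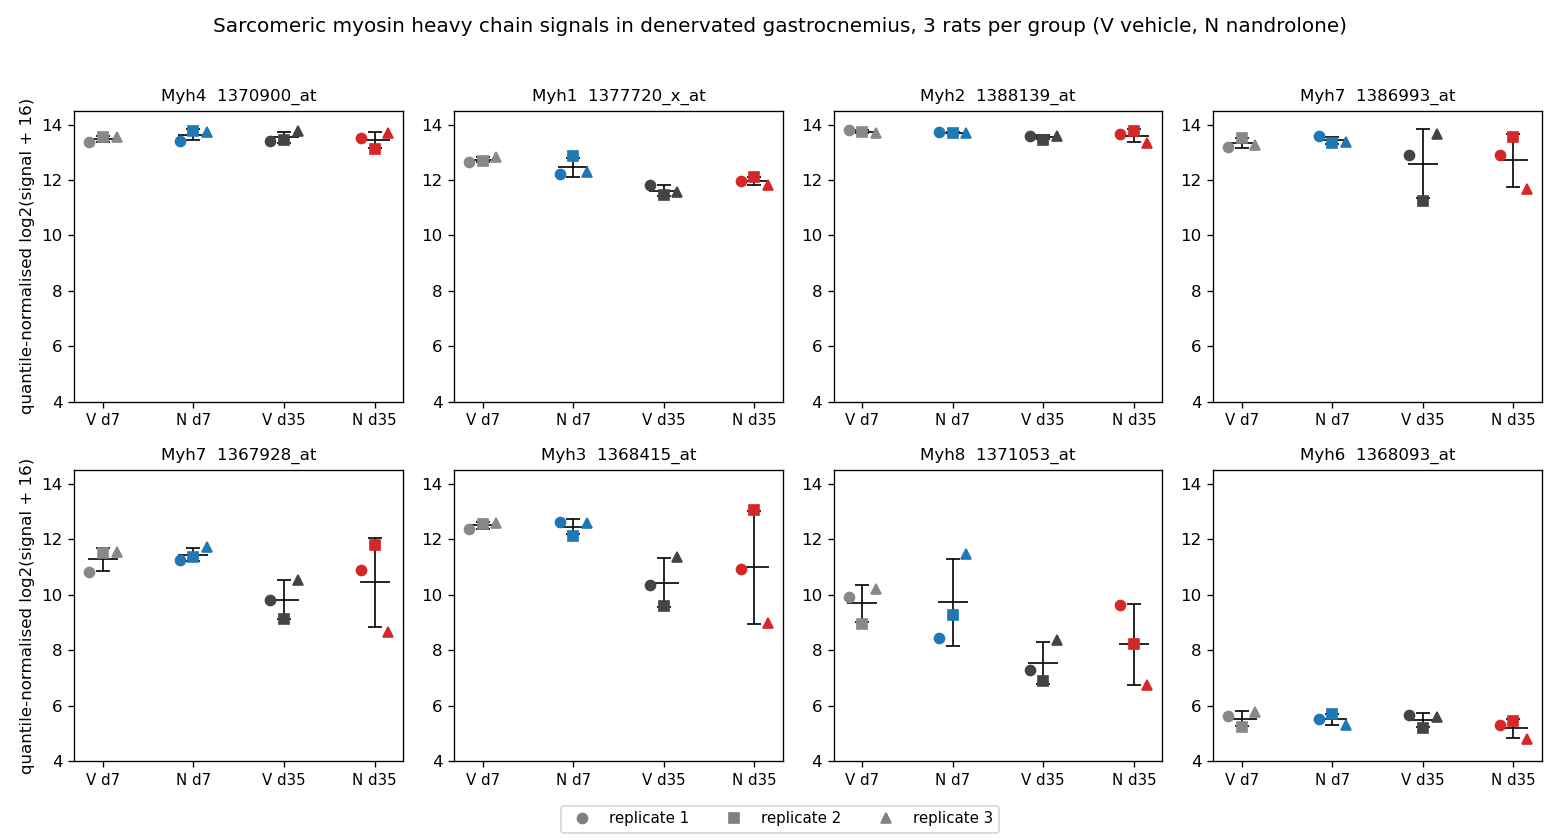
Normalised log2 signal (vertical axis) of 8 member probe sets in each array, by group (V vehicle, N nandrolone, d day). Symbols are single rats, and the bar and whiskers are the group mean and SD (n = 3). Myh4 and Myh2 stay near the top in all groups, and Myh6 lies near the bottom. The Myh1 probe set shown, 1377720_x_at, is lower on every day 35 array than on any day 7 array. Myh3, Myh7 and Myh8 spread widely at day 35.

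Myh3, the embryonic heavy chain, read 5462.7, 5434 and 6417.1 in vehicle day 7 and 5990.7, 4972 and 6769 in nandrolone day 7. At day 35 the vehicle rats read 1147, 621.5 and 3115.5, and the nandrolone rats read 1659.8, 9048.3 and 798.8. The day 7 rats were alike, every vehicle day 35 rat lay below them, and the nandrolone day 35 rats held both the highest and, after normalisation, the lowest value of the series. The SD of log2 Myh3 was 0.12 in vehicle day 7, 0.27 in nandrolone day 7, 0.89 in vehicle day 35 and 2.04 in nandrolone day 35, and only 0.236% of tested probe sets had a larger SD in that last group. In the mean of both treatments Myh3 fell by 1.76 ± 0.52 between day 7 and day 35 (limma adjusted p 0.0431). Taken alone, the vehicle difference was -2.06 ± 0.73 (limma adjusted p 0.114) and the nandrolone difference -1.46 ± 0.73 (limma adjusted p 0.382), neither of them called.

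Myh8, the neonatal heavy chain, read 920.5, 394.5 and 1128.6 in vehicle day 7 and 290.9, 652.7 and 3079.1 in nandrolone day 7. At day 35 the vehicle rats read 126.9, 84 and 368.7, and the nandrolone rats read 676.3, 311.1 and 177.7. The 2 vehicle groups did not overlap, and the 2 nandrolone groups did. The highest value, in nandrolone day 7 replicate 3, stands on the array with the highest summed signal of 8 macrophage markers, 3259 against 728.5 to 1592 on the other arrays, and the part of macrophages in it was not tested. In the mean of both treatments Myh8 fell by 1.84 ± 0.55 (limma adjusted p 0.0457), while under vehicle alone the difference was -2.16 ± 0.78 (adjusted p 0.118).

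The calls of both developmental genes were close to the threshold. That of Myh3 was kept in 9 and that of Myh8 in 8 of 21 alternative analyses, with Myh3 between -2.27 and -1.11 and Myh8 between -2.20 and -1.41 in all of them. Leaving out 1 array kept the Myh3 call only for vehicle day 35 replicate 3, nandrolone day 35 replicate 2 or nandrolone day 35 replicate 3, and the Myh8 call only for nandrolone day 7 replicate 1, vehicle day 35 replicate 3 or nandrolone day 35 replicate 1. In a fit of the 2 vehicle groups alone, which leaves the spread of the nandrolone rats out, both were called for time under vehicle, with a limma adjusted p of 0.00738 for Myh3 and 0.0101 for Myh8. With the replicate number as a block both calls in the mean of both treatments were lost, at a limma adjusted p of 0.059 for Myh3 and 0.0524 for Myh8. Without nandrolone day 35 replicate 2, Myh3 was called under nandrolone too, at -2.49 (limma adjusted p 0.0451), and without replicate 3 of that group it was at -0.46 (limma adjusted p 0.793). For Myh8 under nandrolone the same 2 omissions gave -1.53 and -0.79, neither called. Without replicate 3 of that group the Myh3 difference in the mean of both treatments was -1.28 (adjusted p 0.0325) and that of Myh8 -1.49 (limma adjusted p 0.0678). Over the vehicle groups, 9 of 11 heavy chain probe sets had day 35 arrays all below the day 7 arrays, against 16.7% of all tested probe sets. They include every Myh1 probe set, which read the same gene and are not independent. The rest were those of Myh2, Myh3 and Myh8 and the Myh7 probe set 1367928_at.

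**Figure D2:**
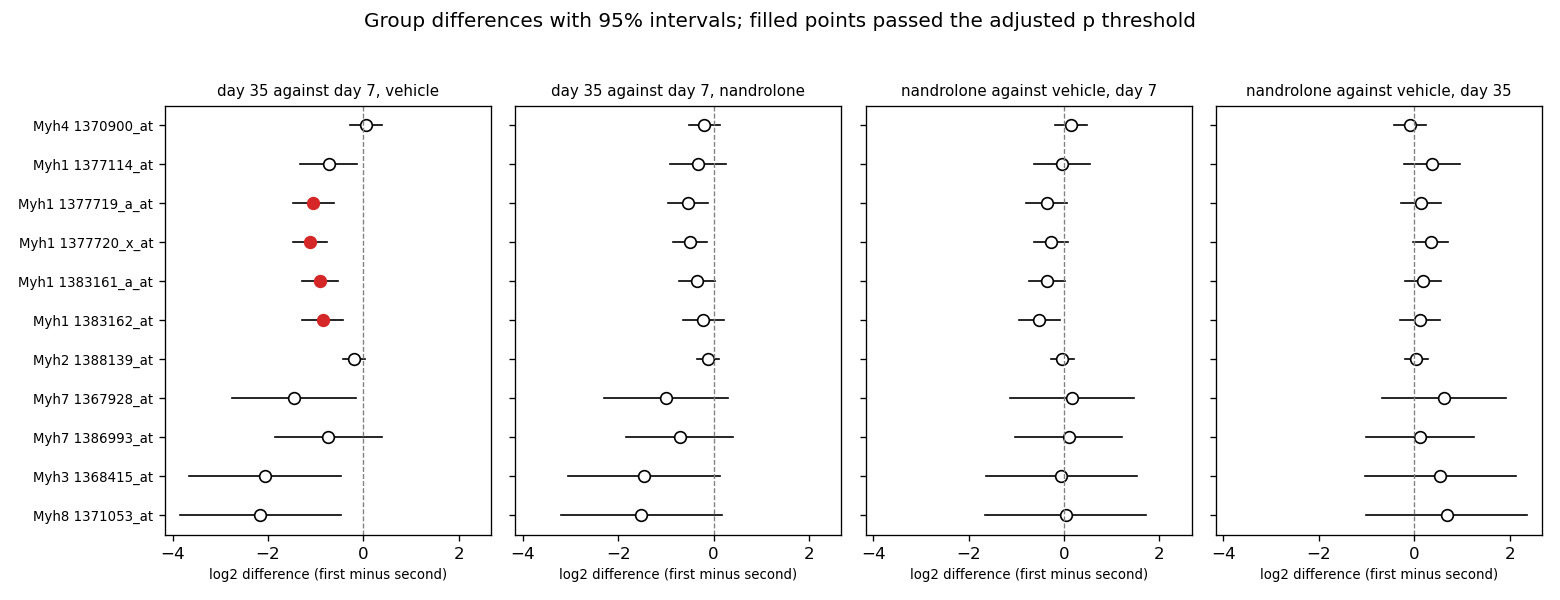
Group difference (horizontal axis, log2, first named group minus second) with its 95% interval for the 11 tested probe sets (vertical axis) in 4 comparisons. Filled points passed the adjusted p threshold: 4 Myh1 probe sets for day 35 against day 7 under vehicle. The intervals of Myh3, Myh8 and Myh7 are the widest.

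The slow isoform Myh7 was read by 2 probe sets. The brighter, 1386993_at, read 10029.1, 11054 and 10531.6 in vehicle day 7 and 11221.2, 10835.3 and 11823.4 in nandrolone day 7. At day 35 the vehicle rats read 6511.2, 1984 and 14020.5, and the nandrolone rats read 6507, 12586.4 and 3994.6. In each treatment 1 of the 3 day 35 rats lay above all day 7 signals of that treatment as deposited and 2 lay below them. After normalisation the high nandrolone rat (13.56) no longer lay above every nandrolone day 7 rat, since replicate 1 there stood at 13.59. Under vehicle the SD of log2 was 0.18 at day 7 and 1.24 at day 35, and among nandrolone rats it was 0.14 and 0.96. Over all tested probe sets the median SD was 0.23 in vehicle day 35 and 0.32 in nandrolone day 35. The vehicle time difference was -0.73 ± 0.52 (limma adjusted p 0.431). The other probe set, 1367928_at, read 1782.7, 2603.6 and 3058.2 in vehicle day 7 and 791.8, 439.2 and 1761.7 in vehicle day 35. It read 2337.5, 2940.4 and 3600.6 in nandrolone day 7 and 1624.5, 3832.3 and 655 in nandrolone day 35. Its vehicle groups did not overlap, yet the difference of -1.46 ± 0.60 was not called (limma adjusted p 0.166). Without nandrolone day 35 replicate 3 in the shared estimate of spread it was called at -1.48 (limma adjusted p 0.0171), and Myh3 was then called under vehicle at -2.09 (limma adjusted p 0.0178). The 2 probe sets of Myh6, the heart isoform, read 16.6 to 37.4 and 1.5 to 36.6, close to background, and no comparison was made.

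At day 35 the rats kept a similar order in several heavy chains. For Myh3 and both Myh7 probe sets the lowest values were those of vehicle day 35 replicate 2 and nandrolone day 35 replicate 3. Nandrolone day 35 replicate 2 and vehicle day 35 replicate 3 were the highest for Myh3 and Myh7 1386993_at, and for Myh7 1367928_at nandrolone day 35 replicate 1 came between them. The lowest 2 arrays were the lowest pair of the 6 for 7 of 11 heavy chain probe sets, and for 8 of 9 slow fibre contractile genes, against 10.3% of all tested probe sets. Without nandrolone day 35 replicate 3, vehicle day 35 replicate 2 was the lowest of the 5 left for 10 of 11 heavy chain probe sets and 8 of 9 slow fibre genes, against 20.3% of all tested ones. The lowest pair was the same for 0 of 12 fast fibre genes, of which 11 lay above the 99th percentile on every array. Day 35 log2 ranges were 0.0445 to 1.091 in the fast fibre genes and 1.1275 to 3.4184 in the slow ones. Myh2, which had the lowest pair, also lies near the top of the scale, so the fast fibre count cannot be weighed against the others. This pair was chosen after the values were seen, and the order carries no test. Over the 12 arrays Myh3 correlated with Myh7 1367928_at at Pearson r = 0.961 and, with group means removed, at 0.942. Without nandrolone day 35 replicate 3 these were 0.937 and 0.852. With Myh4 it correlated at -0.207, and at -0.073 without that array. All points share the same 12 libraries, so these values are a description. Myh8 had the same lowest pair and differed at the top, with nandrolone day 35 replicate 1 highest.

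The genes whose signal was most like each heavy chain over the 12 arrays were taken by Pearson r. They were Tnnc1 (0.94), Tnnt1 (0.931) and Atp2a2 (0.91) for Myh7, and Myoz2 (0.973), Rab15 (0.963) and Homer2 (0.961) for Myh3. For Myh1 they were Trappc6b (0.965), Chpt1 (0.954) and Crls1 (0.949), and for Myh2 Letm1 (0.962), Mrps18b (0.959) and Nif3l1 (0.951). Myh8 was most like Stk17b (0.9), Slc39a13 (0.889) and Tm2d1 (0.876). For Myh4 the nearest genes were less alike, with Rbm12b at 0.815, Zbtb34 at 0.803 and N4bp2 at 0.798. Rab15 was dim, with group means of log2 from 5.35 in vehicle day 35 to 6.43 in vehicle day 7. In nandrolone day 35 the SD of log2 was 1.05 for Rab15 and 0.97 for Homer2. The correlations of this paragraph without replicate 3 of that group are not given.

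**Figure D3:**
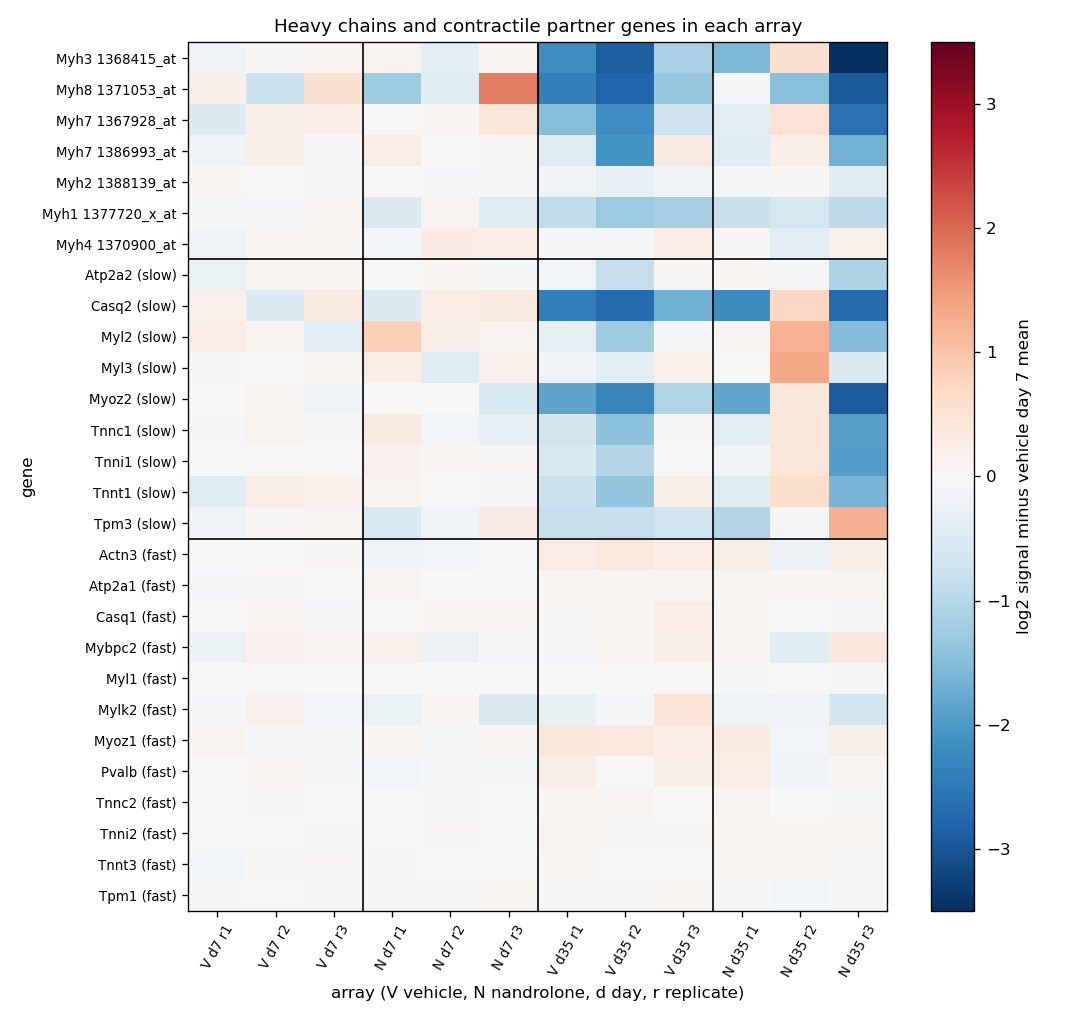
Difference in log2 signal from the vehicle day 7 mean (colour) for heavy chains, slow fibre and fast fibre contractile genes (vertical axis) in each of the 12 arrays (horizontal axis; V vehicle, N nandrolone, d day, r replicate). Myh3, Myh7 and most slow fibre genes are low in vehicle day 35 replicate 2 and nandrolone day 35 replicate 3, and 11 of the 12 fast fibre genes lie near the top of the measured scale.

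Contractile partners of the heavy chains were read from lists of genes. Of 12 tested fast fibre genes, such as the light chain Myl1 and the troponin Tnnt3, limma called none in any of the 7 comparisons, and the median vehicle time difference was 0.07. With 11 of the 12 above the 99th percentile on every array, they lie at the top of the measured scale like Myh4 and Myh2. Of 9 tested slow fibre genes 2 fell in the mean of both treatments, against 6.07% of all tested probe sets called lower there: the Z-disc protein Myoz2 by 1.50 ± 0.42 (limma adjusted p 0.0375) and the calcium store protein Casq2 by 1.84 ± 0.47 (limma adjusted p 0.0248). With 1 array left out in turn, the Myoz2 call was kept in 3 of 12 refits and the Casq2 call in 5 of 12, and leaving out nandrolone day 35 replicate 3 kept both (-1.14 and -1.53). The other 7 were not called, and the list's median difference under vehicle was -0.64 against -0.0045 over all tested probe sets. Of 5 tested developmental genes none was called by limma. Their median time difference was -0.09 under vehicle, -1.09 under nandrolone and -0.56 in the mean of both treatments. The nandrolone median without nandrolone day 35 replicate 3 is not given. That array was the lowest at day 35 for Tnnt2, Chrng and Ncam1, and not for Myl4 and Mybph.

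Of 9 tested genes of thick filament assembly and turnover, 2 rose under vehicle from day 7 to day 35, against 5.61% of all tested probe sets called in either direction: the M-band proteins Myom1, by 0.94 ± 0.20 (limma adjusted p 0.0228), and Myom2, by 0.51 ± 0.13 (limma adjusted p 0.038). Trim63, a ubiquitin ligase that marks thick filament proteins for breakdown, fell by 0.95 ± 0.19 under nandrolone (limma adjusted p 0.0447), the 1 call of the 9 there against 0.676% of all tested probe sets. That call was lost without nandrolone day 35 replicate 3 (-0.86, limma adjusted p 0.0799) and kept in 2 of 12 refits that left out 1 array, while in the mean of both treatments Trim63 fell by 0.67 (limma adjusted p 0.00803), a call kept in 12 of 12. Under vehicle the Trim63 difference was -0.39 ± 0.19 (adjusted p 0.24), and the 2 differences were not shown to differ, since the interaction called no probe set. Of 12 tested regulators of fibre type 1 rose under vehicle, against the same 5.61% of all tested probe sets called in either direction. It was the myogenic factor Myod1, which rose by 0.93 ± 0.21 (limma adjusted p 0.0244). With 1 array left out the vehicle calls were kept in 7 of 12 refits for Myom1, 5 for Myom2 and 6 for Myod1. In the mean of both treatments, where 12.6% of all tested probe sets were called, these genes were called too. Myom1 rose by 0.72, Myom2 by 0.42 and Myod1 by 0.715 (limma adjusted p 0.00803, 0.0113 and 0.00872), each call kept in 12 of 12 refits. Of 4 tested heavy chain genes outside the sarcomeric set none was called by limma. Between the 2 vehicle groups the summed macrophage markers ran from 1385 to 1592 at day 7 and from 728.5 to 825.5 at day 35. The summed Schwann cell markers ran from 1713 to 2151 and from 3375 to 4792, neither list overlapping, and their part in the heavy chain differences was not tested.

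Nandrolone was compared with vehicle at each time. No heavy chain probe set was called by limma at day 7, at day 35, in the mean of both days or in the interaction, against 0% of all tested probe sets in each of the 4. At an unadjusted p under 0.05 there were 1, 0, 0 and 3 of 11 heavy chain probe sets, and 331, 1590, 889 and 745 of all tested ones. The groups overlapped for all 11 probe sets at both times, against 7.66% of all tested probe sets without overlap at day 7 and 11.6% at day 35. At day 7 the 5 Myh1 differences ran from -0.52 to -0.03, with 1383162_at at -0.52 ± 0.20 (unadjusted p 0.022, adjusted p 1 in limma). At day 35 they ran from 0.12 to 0.37. The sign of 2 of these 5 at day 35, 1383161_a_at and 1383162_at, turned with median centring, as did that of Myh2 and Myh7 1386993_at.

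The intervals show what 3 rats a group could not resolve. For Myh3 the nandrolone minus vehicle difference at day 35 was 0.55 ± 0.73, with a 95% interval from -1.04 to 2.14 (limma adjusted p 0.795). Without nandrolone day 35 replicate 2 that difference was -0.48, and without replicate 3 of the same group it was 1.57, so single rats set its sign and size. For Myh8 it was 0.68 ± 0.78 (interval -1.002 to 2.37), and the same 2 omissions gave 0.67 and 1.43. For Myh7 1386993_at it was 0.12 ± 0.52 (interval -1.004 to 1.24), with -0.31 and 0.65 under them. For Myh4 it was -0.09 ± 0.15 (interval -0.43 to 0.24), with 0.06 and -0.21, and for Myh2 0.05 ± 0.11 (interval -0.19 to 0.29), with -0.05 and 0.18. Of these 5 genes only Myh8 kept its sign under both omissions. At day 35 the actin 3' to 5' ratio, a sign of RNA quality, was 2.68 to 3.71 under vehicle and 1.9 to 2.57 under nandrolone, without overlap, and its part in these differences was not tested.

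The balance of isoforms was read within each array as the difference between classes, set to 0 at the vehicle day 7 mean. Fast is the mean of Myh4, Myh1 and Myh2, slow is Myh7, and developmental is the mean of Myh3 and Myh8, each gene by its brightest probe set. Developmental minus fast was -1.90, -2.31 and -0.87 in vehicle day 35, below all 3 vehicle day 7 arrays, which ran from -0.36 to 0.27. In nandrolone day 35 it was -0.54, -0.13 and -2.86, so this group overlapped vehicle day 7. Slow minus fast was -0.05, -1.56 and 0.68 in vehicle day 35 and -0.15, 0.55 and -1.28 in nandrolone day 35, on both sides of the vehicle day 7 arrays. Myh1 minus Myh4 was -0.83, -1.22 and -1.45 in vehicle day 35 against -0.09 to 0.05 in vehicle day 7. In nandrolone day 7 it ran from -0.69 to -0.16 and in nandrolone day 35 from -1.10 to -0.26, with every array of the 3 other groups below vehicle day 7. A ratio within an array does not say which of the genes changed. Myh4 and Myh2 lie at the top of the measured scale, where a change in RNA may be read too small. The ratios that hold them therefore show unequal change in signal, which need not be unequal change in RNA.

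**Figure D4:**
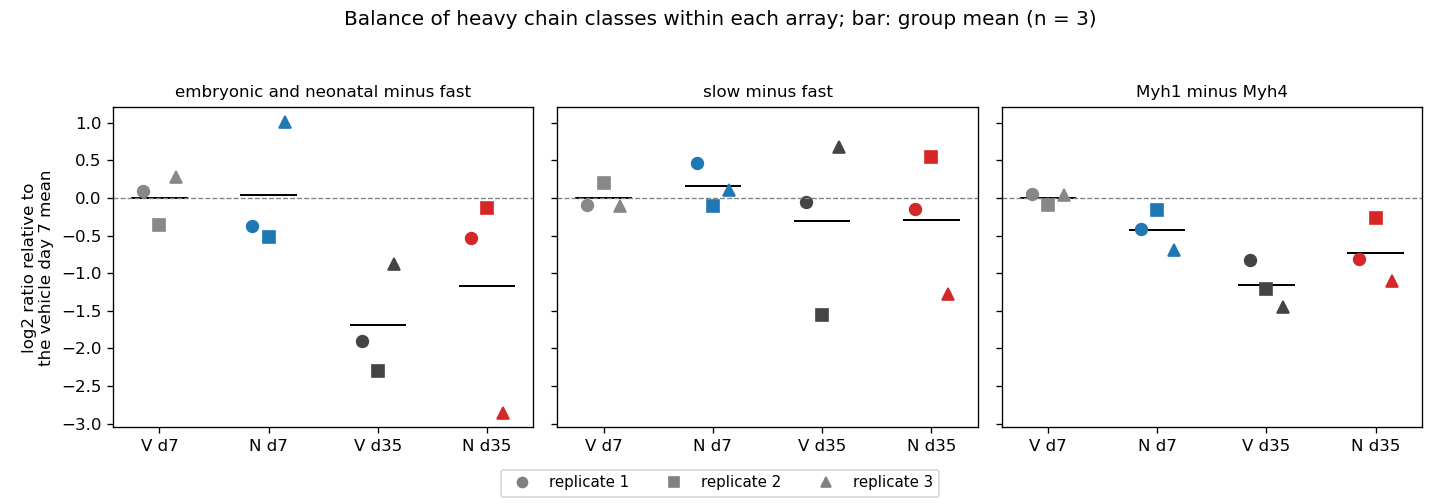
Log2 ratio between heavy chain classes within each array, relative to the vehicle day 7 mean (vertical axis), by group (V vehicle, N nandrolone, d day). Symbols are single rats and bars are group means (n = 3). Developmental minus fast is lowest in nandrolone day 35 replicate 3 at -2.86, slow minus fast spreads to both sides of 0 at day 35, and Myh1 minus Myh4 is below 0 on every array of the 3 groups other than vehicle day 7.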

How the data were processed

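Total RNA of 12 gastrocnemius muscles was hybridised to one-colour Affymetrix arrays, 1 per rat. Deposited signals are linear intensities, 1 per probe set, made with MAS5 per the submitters' processing notes, with no version given. Another table, whose 12 numbered columns could not be matched to samples, was left out. The titles of the samples gave the groups. The p-values set group differences against the spread between these rats, estimated jointly over the 4 groups although their spreads differed.

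The table held 31099 probe sets, of which 57 controls were left out. To the intensities 16 was added, log2 was taken and arrays were quantile normalised, and the lowest 40% by mean were left out. Limma 3.58.1 in R 4.3.3 fitted 4 group means with an intensity trend (8 residual degrees of freedom) and tested 7 contrasts, two-sided, with Benjamini-Hochberg adjustment at 0.05. With 3 against 3 the smallest p of an exact permutation test is 0.1. The number of arrays limits the precision. The fit was tested on simulated data.

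The heavy chains and the 15 gene lists were chosen with earlier results of these data known. Every heavy chain probe set is given, a gene with several is represented by its brightest, and other genes come from the lists by calls or from the 3 highest correlations. The groups are different rats, and the labels state no pairing by replicate number. Between arrays of equal number, deviations from group means correlated at 0.162, 0.265 and 0.416 for the 2 nandrolone groups. For the 2 day 7 groups the values were 0.148, 0.082 and 0.105. Between the 2 day 35 groups and between the 2 vehicle groups they lay from -0.023 to 0.105. No 2 arrays were near-identical (highest r 0.977). Alternatives were the deposited scale, median centring, pseudocounts of 1 and 64, no filter or a 60% filter, no trend, array weights, a replicate block, only the 2 groups compared, and each array left out.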

Additional observations from a re-analysis of the deposited data

How the results depend on the processing

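No heavy chain difference changed direction past the threshold under any alternative. For day 35 against day 7 under vehicle, 4 heavy chain probe sets were called, 2 on the deposited scale, 8 with array weights and 8 with only the 2 groups compared, while all tested probe sets gave 1045, 192, 5274 and 2544 calls. Leaving out 1 array gave 1 to 6. Under nandrolone the count was 0, and 0 to 1 with an array left out, the 1 being Myh3 without nandrolone day 35 replicate 2. All calls there went from 126 to 15 on the deposited scale, 73 without a filter, 59 without the trend, 293 with weights and 0 with only the 2 groups compared. In the mean of both treatments it was 6, and 3 to 7 with an array left out; 3 was reached without vehicle day 7 replicate 1, vehicle day 7 replicate 3, nandrolone day 7 replicate 2 or vehicle day 35 replicate 2. All calls in that contrast went from 2338 to 953 on the deposited scale and 4570 with weights. Nandrolone against vehicle and the interaction gave 0 heavy chain calls in limma under every alternative run, and weights called 49 of all probe sets at day 35 and 4 in the mean of both days. With the replicate block, the mean of both treatments had 4 calls, Myh3 and Myh8 losing theirs, and the block changed no other heavy chain call. The deposited scale shifts the median of all tested probe sets by 0.13 and 0.26 for nandrolone against vehicle at day 7 and day 35 and by 0.20 for time under nandrolone. Leaving out 1 array for the called list genes was chosen after seeing the data. Signals of Myh4, Myh2, Myh7 and the fast fibre genes near the top of the scale, cross-reading between paralogs and 3 rats a group limit what these arrays can resolve.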
